A study of Mus musculus with 11 samples.

Results

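Epididymal fat of mice without an endogenous kinin B1 receptor was compared with that of wild-type mice, whatever the receptor status of the fat itself. The 7 arrays titled as knockout, with or without rescue in fat, were set together against the 4 wild-type arrays, so that the comparison used all 11 arrays of the series. Wild-type mice carried B1+/+ (4 arrays). Knockout mice carried B1-/- (4 arrays), and fat rescue mice carried aP2B1-B1-/- (3 arrays), in which the receptor is restored under the aP2 promoter on the same receptor-null background. All were C57BL/6 males aged 3 months on standard chow, and the fat was snap frozen after the mice were killed. The aP2 promoter is that of Fabp4, a gene strongly expressed in adipocytes and also known to be active in macrophages, so the rescue may reach cells other than adipocytes. The labels call the arrays biological replicates without saying more of the animals, and p-values measure the spread between these arrays only. The question is what both lines have in common. Log2 differences are given as both lines minus wild type with a standard error (SE), signals are the deposited linear values, and a gene passed at a limma p under 0.05 after Benjamini-Hochberg adjustment over 12709 genes.

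Kinins are small peptides cut from kininogens by kallikreins at sites of injury and inflammation. They act on a pair of G protein-coupled receptors, the constitutive B2 receptor (Bdkrb2) and the B1 receptor (Bdkrb1), which is scarce in healthy tissue, is induced by inflammatory signals and binds the kinin fragments left by carboxypeptidases. In white fat the receptors are known for links to insulin action and leptin. Bdkrb1, Bdkrb2 and the genes of many secreted serine protease inhibitors (serpins) lie on mouse chromosome 12.

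A total of 8 genes passed, 5 higher and 3 lower in the lines without the endogenous receptor, which is 0.0629% of all genes (0.0393% higher and 0.0236% lower). The higher ones were the serpin genes Serpina1b and Serpina3n, the syndecan gene Sdc4, the interferon-induced GTPase gene Iigp1 and the methyltransferase gene Vcpkmt. The lower ones were Hsd11b1, which makes active glucocorticoid from its inert form, Trim14, an adaptor of antiviral signalling, and Serinc3, a membrane protein gene. In all 8 the 7 arrays of both lines lay beyond the 4 wild-type arrays. Over all genes such a separation occurred upward in 86 (0.677%) and downward in 90 (0.708%). An unadjusted p under 0.05 was reached by 1181 genes (9.29%) where 635 were expected, 682 higher (5.37%) and 499 lower (3.93%).

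The upstream sequences of 4 genes are shown to let their letters be compared. They belong to the serpin pair of chromosome 12, which passed, and to Igtp and Irgm2, of the same interferon-induced GTPase family as Iigp1, which did not pass. The windows are the 250 bases before the annotated start, from RefSeq on GRCm38.p6, and were matched by gene symbol. Capitals mark matches, on either strand, to the core of the interferon-stimulated response element (ISRE, GAAA and GAAA with any pair of bases, NN, between), the gamma-activated site (GAS, TTCNNNGAA) and the core of the glucocorticoid response element (GRE, ACANNNTGT), which did not overlap here. The positions are chr12:103738190-103738439 on the minus strand for Serpina1b and, on the plus strand, chr12:104406458-104406707 for Serpina3n, chr11:58199306-58199555 for Igtp and chr11:58214727-58214976 for Irgm2.
Serpina1b: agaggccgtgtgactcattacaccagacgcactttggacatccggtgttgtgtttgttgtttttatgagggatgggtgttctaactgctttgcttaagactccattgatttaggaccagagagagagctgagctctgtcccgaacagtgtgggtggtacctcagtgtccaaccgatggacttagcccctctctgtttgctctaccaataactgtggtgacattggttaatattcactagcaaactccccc
Serpina3n: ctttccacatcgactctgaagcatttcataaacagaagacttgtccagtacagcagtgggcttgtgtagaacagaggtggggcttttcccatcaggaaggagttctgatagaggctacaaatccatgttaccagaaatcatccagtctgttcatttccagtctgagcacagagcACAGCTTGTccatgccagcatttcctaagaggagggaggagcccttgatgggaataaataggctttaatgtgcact
Igtp: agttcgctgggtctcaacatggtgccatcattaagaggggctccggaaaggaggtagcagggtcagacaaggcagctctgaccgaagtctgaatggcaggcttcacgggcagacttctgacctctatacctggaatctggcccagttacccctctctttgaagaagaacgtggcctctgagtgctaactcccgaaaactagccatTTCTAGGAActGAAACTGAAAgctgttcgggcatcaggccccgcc
Irgm2: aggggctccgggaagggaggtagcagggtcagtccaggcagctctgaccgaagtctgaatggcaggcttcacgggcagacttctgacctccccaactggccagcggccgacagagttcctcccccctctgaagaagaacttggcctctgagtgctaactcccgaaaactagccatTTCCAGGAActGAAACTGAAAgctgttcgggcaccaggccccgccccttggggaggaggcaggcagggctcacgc
The Serpina1b window held no match. That of Serpina3n held a GRE core 76 bases before the start. Igtp and Irgm2 each held an ISRE core (34 and 64 bases before the start) behind a GAS (45 and 75 bases). These windows share most of their letters, so they do not count as separate cases. The window of Ifi47, an interferon gene with a smaller p than Irgm2, is not printed. It held neither an ISRE core nor a GAS, but a GRE core 191 bases before the start. The ISRE core was present in 821 of 27025 mouse promoters of the same length (3.04%) and in 13 of 25 measured interferon genes with a window (52.0%). The GAS was present in 7.18% of all promoters and in 8 of those 25 genes. The GRE core was present in 5.91% of promoters and in 2 of the 6 passing genes with a window, Serinc3 and Serpina3n. With the next genes by p added, these were 2 of 17 (11.8%), and in the glucocorticoid list 1 of 13 (7.69%) held it, Mt1. Of the 6 passing genes 0 held an ISRE core and 0 a GAS, and among the 17 Igtp held both. These matches describe letters in the windows and say nothing on binding.

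Serpina1b encodes a form of alpha-1-antitrypsin, the secreted inhibitor of neutrophil elastase. In wild type it read 23.7, 29.1, 30.5 and 21.1. Knockout arrays read 392, 721.4, 810.4 and 370.1, those of fat rescue 449.2, 757.3 and 375.8. All 7 null arrays were far above the wild-type range, and those of the rescue lay inside the range of the knockout. The means were 26.1 ± 4.44 (SD, n = 4) and 553.7 ± 199 (n = 7), and the log2 difference was 4.34 ± 0.24 (adjusted p = 6.16e-07). The wild-type signal lay below the array medians, so the 20.3-fold ratio is no exact size, and the log2 difference ranged from 2.92 to 6.17 over the alternatives. Its other probe set read 1.4 to 4.7 in wild type and 416.3 to 978.7 in the null arrays. The Serpina1 genes of the mouse are near copies of each other, so the signal cannot be assigned to this copy alone.

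Serpina3n, which encodes an inhibitor of granzyme B and other proteases and belongs to the acute-phase response, was already bright. It read 2869.2, 2710.3, 2178.9 and 2301.8 in wild type. The knockout arrays read 5057, 4754.9, 4135.5 and 4024.2, and the rescue arrays 4399.8, 4355.6 and 3664.5. All 7 null arrays were above the highest wild-type array. The gene rose by 0.79 ± 0.10 on the log2 scale, or 1.73-fold (adjusted p = 0.00612). Of the other 5 measured acute-phase genes, Orm1, an orosomucoid gene, read 3088 ± 827 and 1534 ± 555 with a log2 difference of -1.06 that did not pass (adjusted p = 0.257), while Lcn2 (0.93), Saa3 (0.46), Hp (0.05) and Cfb (-0.04) did not reach an unadjusted p of 0.05. Orm1 is thus the one member of the list at an unadjusted p under 0.05 in the downward direction.

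Sdc4 encodes syndecan-4, a heparan sulfate proteoglycan of the cell surface that takes part in adhesion and lipoprotein clearance. Its brighter probe set read 696.5, 176.5, 193.9 and 313.3 in wild type. Knockout arrays read 1299.4, 1662.7, 1567.2 and 1810.6, those of fat rescue 1671.9, 1977.6 and 1637.1. Wild-type array 1 was the highest of its group and still below every null array. The signal rose 5.61-fold (log2 2.49 ± 0.28, adjusted p = 0.00292). The dimmer probe set went the other way, with means of 273 and 210.5 (log2 -0.40, adjusted p = 0.623), so the probe sets of this gene disagree, and their mean gave a log2 difference of 1.05. Among the 12 measured proteoglycan genes Sdc4 alone passed. The other syndecan genes read 0.29 (Sdc3), 0.21 (Sdc1) and 0.02 (Sdc2).

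Iigp1, an immunity-related GTPase that attacks the vacuoles of intracellular parasites, read 619.2, 597.8, 669.5 and 498.8 in wild type. The knockout arrays read 1063.1, 920, 801.9 and 1159.7, and the 3 rescue arrays 1012.9, 1009.1 and 991.6. The lowest null array, knockout array 3, stood above the highest wild-type array. The gene rose by 0.74 ± 0.10 (1.67-fold, adjusted p = 0.0108), and its second probe set read 0.74 ± 0.13 (adjusted p = 0.0645 among all probe sets). Vcpkmt, which methylates the chaperone VCP, was dim: wild-type arrays read 67.9, 64, 70.1 and 43.6, knockout arrays 122, 134.9, 97.1 and 127.3, and rescue arrays 162.8, 171.3 and 121.1. It rose by 1.13 ± 0.18 (2.18-fold, adjusted p = 0.0341).

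Hsd11b1 encodes 11-beta-hydroxysteroid dehydrogenase type 1, which raises glucocorticoid action within adipocytes and hepatocytes. It read 5910.3, 5364, 5617.5 and 5707.9 in wild type. The knockout arrays read 2938, 3456.3, 3504.4 and 2811.9, and the rescue arrays 3962.2, 3682 and 3921.5. The 3 rescue arrays lay above all 4 knockout arrays and below all 4 wild-type arrays. The signal fell by 0.71 ± 0.10 on the log2 scale (adjusted p = 0.0108). Of 16 measured genes of glucocorticoid activation and response 14 had lower means (median -0.15, against 0.02 for all genes), but Hsd11b1 alone passed. The metallothionein gene Mt1 (-0.32 ± 0.11, adjusted p = 0.411) and the glucocorticoid-induced factor Klf9 (-0.21 ± 0.09, adjusted p = 0.490) came next. Leaving out wild-type array 1 gave a median of -0.33, and leaving out wild-type array 4 one of -0.08.

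Trim14 read 1085.3, 923.1, 1141.4 and 920.8 in wild type. Knockout arrays read 504, 563.6, 675.4 and 577.6, rescue arrays 587.9, 685.6 and 699.3. The groups did not overlap, and the gene fell by 0.73 ± 0.10 (adjusted p = 0.0108). Serinc3, of a family of membrane proteins that restrict retroviruses and were named for serine incorporation, read 4590, 6814.5, 5935.4 and 6087.3 in wild type. The knockout arrays read 4284.1, 3266.5, 3576.8 and 2950.5, and the rescue arrays 2937.2, 2716 and 3218.9. Wild-type array 1 and knockout array 1 nearly met. Serinc3 fell by 0.84 ± 0.13 (adjusted p = 0.0205), and its other 5 probe sets were lower as well, by -0.48 to -2.77, the last of which passed among all probe sets (adjusted p = 0.0109). Phgdh, the first enzyme of serine synthesis, came next below the threshold (5354 ± 568 and 3822 ± 299, log2 -0.48 ± 0.08, adjusted p = 0.0627), with no overlap between the groups. The remaining 7 measured genes of serine synthesis and the Serinc family lay between -0.28 and 0.19.

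**Figure D1:**
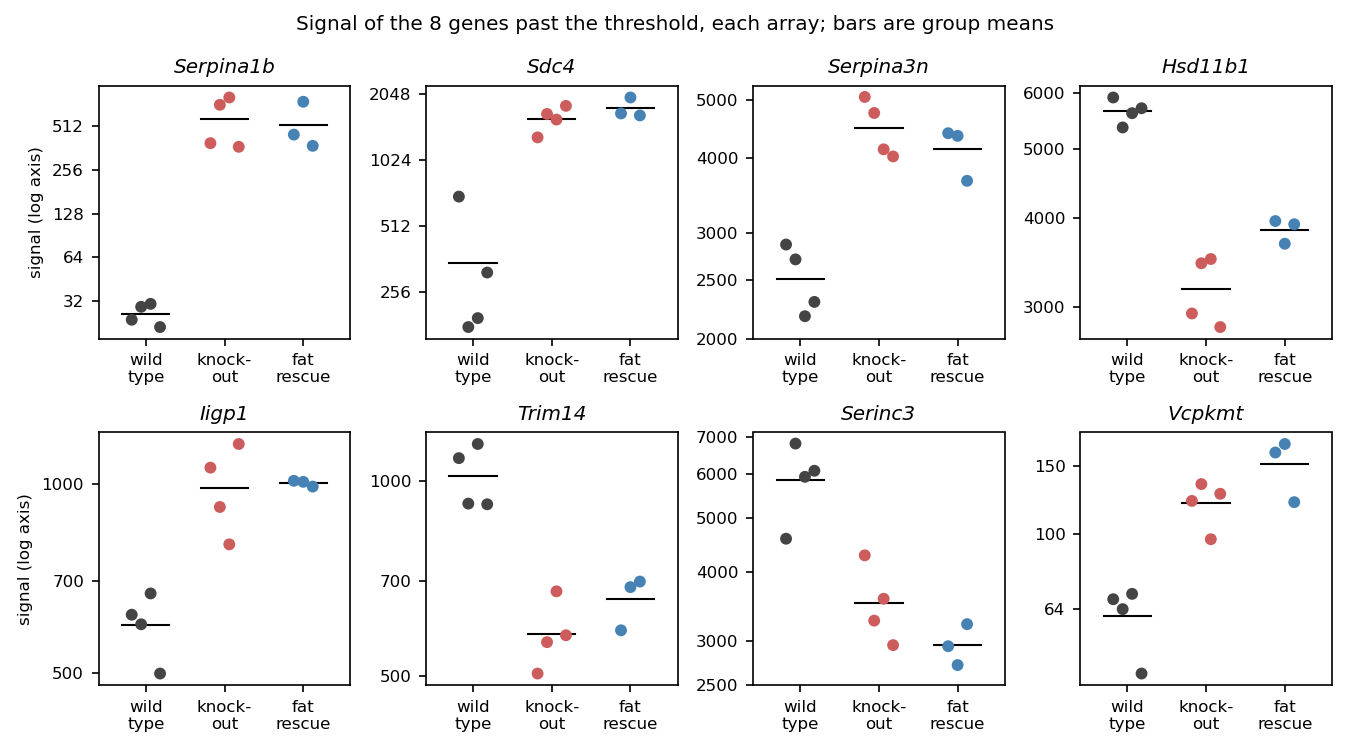
Signal of each array on log axes for the 8 genes that passed, with a horizontal bar at the mean of wild type (n = 4), knockout (n = 4) and fat rescue (n = 3). In every panel the 7 points of both receptor-null lines lie on one side of the 4 wild-type points.

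Serpina1b and Sdc4 passed in 23 of 23 alternatives for the pooled comparison, Serpina3n in 22, Hsd11b1 in 21, Iigp1 and Trim14 in 20 each, Serinc3 in 16 and Vcpkmt in 8. The count of 8 became 21 without wild-type array 1 (all 8 among them) and 4 without wild-type array 3, which lost Hsd11b1 (adjusted p = 0.0604), Trim14 (0.0804), Serinc3 (0.104) and Vcpkmt (0.0804). Serinc3 was also lost on leaving out wild-type array 2, wild-type array 4, knockout array 4 or rescue array 1, and Vcpkmt on leaving out any single array, with 2 exceptions (wild-type array 1, knockout array 3). Leaving out both wild-type array 1 and rescue array 1 gave 14 genes, and centring each array on its median gave 14, with 3 higher and 11 lower.

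The nearest genes that missed the threshold belonged to several functions. On the higher side they were Dtd2 (log2 0.74 ± 0.14, adjusted p = 0.0930), the small GTPase gene Arf6 (0.31 ± 0.06, 0.115), the immediate early factor Junb (0.70 ± 0.13, 0.115), the phosphatase gene Ptpre (0.64), Igtp (0.55 ± 0.11, 0.122), Gm16316 (2.90), the potassium channel gene Kcnn4 (1.13) and Dnajb14 (0.48). Arf6 has 3 dimmer probe sets, at 0.45, -0.02 and -1.01. The last read 238.3 ± 56.8 in wild type and 118.2 ± 28.1 in the null arrays. Its limma adjusted p among all probe sets was 0.096, against 0.202 for the brightest, so the direction of Arf6 depends on the probe set. A dimmer probe set of Dnajb14 lay at -0.13, against the sign of its brightest. On the lower side, after Phgdh, they were Smim19 (-0.41), Tmem45b (-0.74), Clmn (-0.67), the Notch glycosyltransferase gene Mfng (-0.70), Fam53b (-0.74), Zfp277 (-0.54) and the retinol carrier gene Rbp4 (-0.46 ± 0.09, 0.168). Dimmer probe sets of Fam53b (0.15) and Zfp277 (0.23) also had the other sign. With the mean of the probe sets of a gene the differences were 0.17 for Dnajb14, -0.29 for Fam53b, -0.16 for Zfp277 and -0.40 for Clmn. Gm16316, Clmn and Fam53b were the 3 of these 16 whose groups overlapped.

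Whether the lines differed from each other was tested by fat rescue minus knockout. With limma 0 of 12709 genes passed (0%), the smallest adjusted p was 0.998, and 484 genes (3.81%) reached an unadjusted p under 0.05, fewer than the 635 expected. Each alternative gave 0 as well. The difference between the lines had 95% intervals on the log2 scale of -0.75 to 0.55 for Serpina1b, -0.60 to 0.92 for Sdc4, -0.38 to 0.14 for Serpina3n, -0.24 to 0.32 for Iigp1, -0.12 to 0.78 for Vcpkmt, -0.07 to 0.44 for Trim14 and -0.55 to 0.07 for Serinc3. These intervals do not show that the lines were alike. The interval of Hsd11b1 left out 0 (0.08 to 0.49, unadjusted p = 0.00916), with the rescue nearer to wild type, and did not pass over all genes. Among the 16 genes below the threshold, Zfp277 had such an interval too (-0.53 to -0.05).

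The comparisons of each line with wild type share the 4 wild-type arrays and are given side by side. Knockout alone passed 5 genes (0.0393%) and fat rescue alone 2 (0.0157%), counts that became 14 and 8 without wild-type array 1, and 2 and 1 without wild-type array 3. Serpina1b differed by 4.39 in knockout and 4.29 in fat rescue, and Sdc4 by 2.42 and 2.58, and both passed in each line. Serpina3n (0.84 and 0.72), Hsd11b1 (-0.84 and -0.55) and Trim14 (-0.81 and -0.63) passed in knockout alone. Iigp1 (0.72 and 0.76), Serinc3 (-0.73 and -0.97) and Vcpkmt (0.98 and 1.31) passed in neither line by itself, and only with the 7 arrays together. Among genes outside these 24, the smallest p-values between the lines were those of Nkain4, Rap1gap2, Rapgef5 and the BMP inhibitor Smad6, with higher means in fat rescue (0.61, 0.46, 0.36 and 0.58), and of the replication licensing gene Mcm2, Serinc4, Syt11 and Pacc1, with lower ones (-1.23, -1.39, -0.56 and -0.63). The signs of Syt11 and Pacc1 turned with the mean of their probe sets, and none of these 8 passed.

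**Figure D2:**
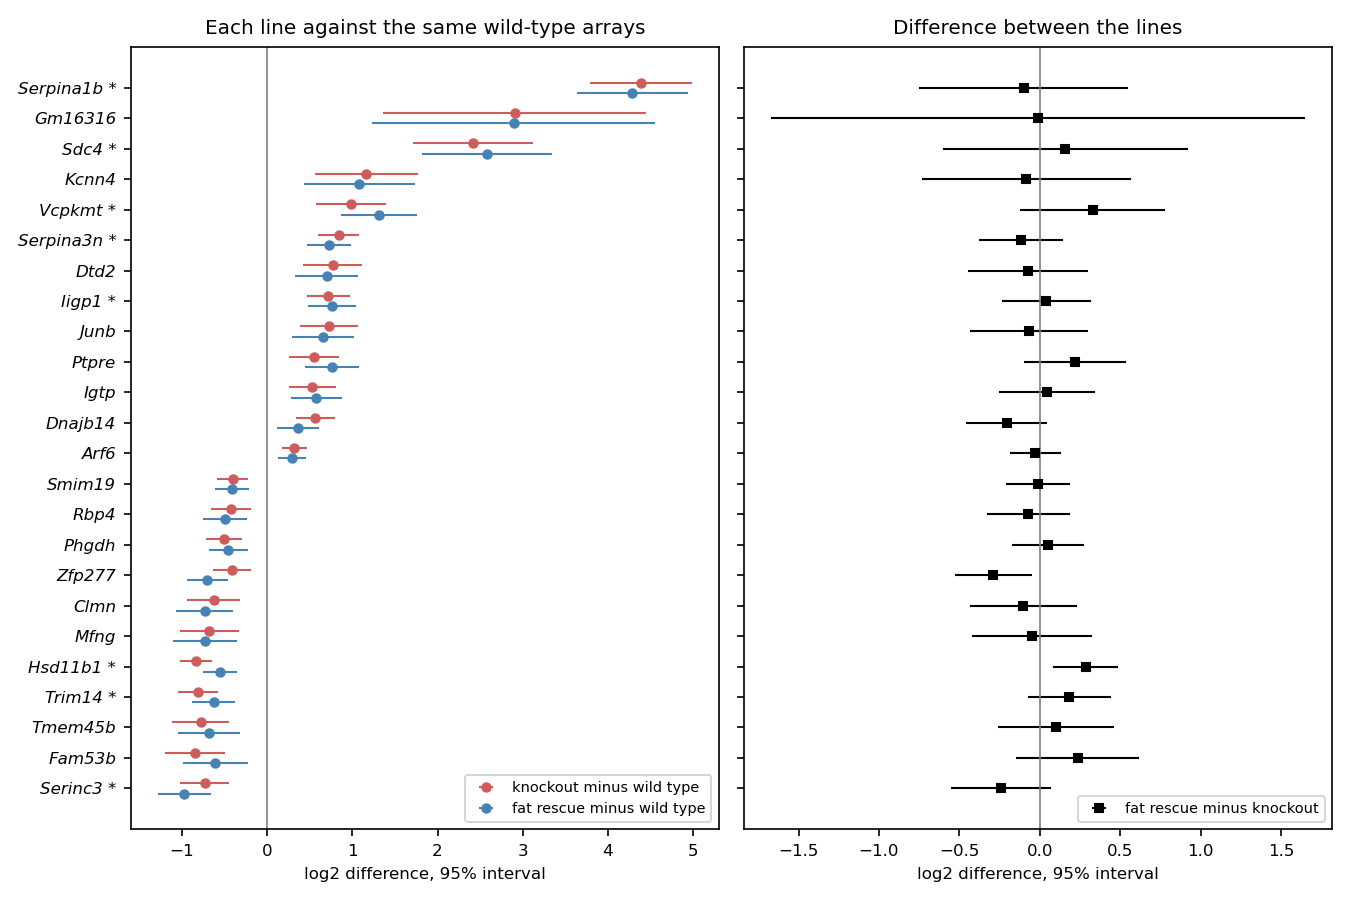
Left, log2 difference of knockout (n = 4) and of fat rescue (n = 3) from the same 4 wild-type arrays, with 95% intervals, for the 8 genes that passed (asterisks) and the 16 next by p. Right, the difference between the lines with its 95% interval, which spans 0 for 22 of the 24 genes and leaves it out for Hsd11b1 and Zfp277.

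The receptor genes gave no check of the deletion, because no source used here says whether the probe sets lie inside it. Bdkrb1 read 5.5, 32.2, 3.7 and 8.9 in wild type. Knockout arrays read 4.8, 29.4, 6.9 and 29.7, rescue arrays 73.4, 57.8 and 60.4. The rescue arrays were the 3 highest, and knockout overlapped wild type. With both lines together the log2 difference was 1.56 ± 0.79 (adjusted p = 0.201 over the 3 receptor probe sets, two-sided exact permutation p = 0.121). Without knockout array 1 it was 1.96, with an adjusted p of 0.0432 over those 3 probe sets, not over all genes. This pools 0.58 in knockout with 2.86 in fat rescue, and fat rescue minus knockout was 2.28 ± 0.80. The probe sets of Bdkrb2 read 2.8 to 20.5 in wild type and 2.4 to 28.7 in the null arrays (adjusted p = 0.831 each). Of the other genes of kinin formation and breakdown 11 were measured, 7 with higher means, and none passed. The neutral endopeptidase gene Mme, whose product breaks down bradykinin, read -0.39 ± 0.14 (adjusted p = 0.409), and the carboxypeptidase gene Cpe 0.26 ± 0.12 (adjusted p = 0.536).

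The arrays themselves differed between the groups. All had a trimmed mean of 200, but the median signal was 45.6 to 48.8 in the null arrays and 41.3 to 45.1 in wild type, a log2 difference of 0.13 (two-sided exact permutation p = 0.00303, the smallest that 330 splits allow). The beta-actin ratio of the 3′ over the 5′ probe set, a measure of RNA integrity, was 1.47 to 1.69 in the null arrays and 1.65 to 1.83 in wild type (exact permutation p = 0.0303), while that of Gapdh overlapped more (exact permutation p = 0.136). Wild-type array 1 and rescue array 1 had the lowest scores on a first principal component that took 27.3% of the variance. Of all genes 54.5% had a higher mean in the null lines, with a median log2 difference of 0.02. Centring the arrays moved that median to -0.11 and quantile normalization to -0.01, and the lists below are read against it. The adipocyte marker Adipoq read 17114 to 23627.1 in wild type and 15589.1 to 22283.7 in the null arrays. In a piece of tissue, fewer cells of a type and less RNA per cell cannot be told apart.

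**Figure D3:**
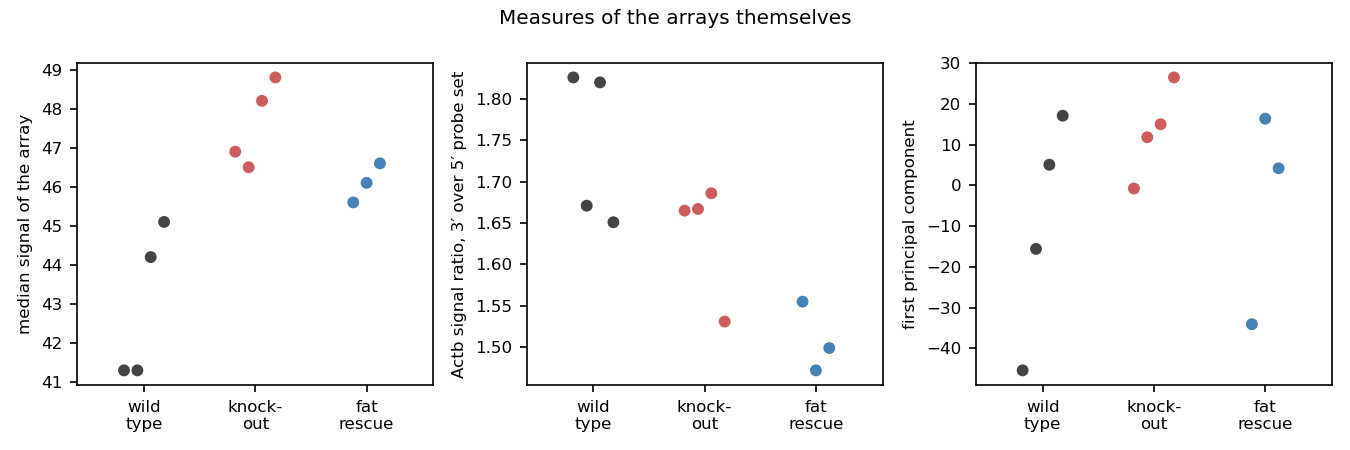
Median signal, beta-actin ratio of 3′ over 5′ probe set, and score on the first principal component for each array, by genotype. The 4 wild-type arrays have the lowest medians (41.3 to 45.1), and wild-type array 1 and rescue array 1 have the lowest component scores.

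Of 449 tested genes of chromosome 12, which carries Bdkrb1, 3 passed (Serpina1b, Serpina3n and Vcpkmt) and 11 had an unadjusted p under 0.001. That is 2.45% against 0.456% of all genes, and the next highest chromosome reached 0.698%. Of the 24 genes that passed or came next, 7 lay there. By the probe sets used, the 11 genes differed in direction, 7 higher (Arf6 among them, with a dimmer probe set at -1.01) and 4 lower. All of them came before Bdkrb1 in gene order, among 367 tested genes, and the 82 after it held 0, with 6 at an unadjusted p under 0.05. Clmn was 7, Serpina3n 9 and Serpina1b 11 tested genes from Bdkrb1. The next was the RNA decay factor gene Zfp36l1 (0.37) at 135, then Snapc1 (-0.83) at 166, Vcpkmt at 198, its neighbour Arf6 at 199, the endothelial lectin gene Clec14a (0.57) at 219, the chromatin remodelling gene Baz1a (-0.35) at 230, Dtd2 (0.74) at 239 and Zfp277 at 254. Within 50 tested genes on either side of Bdkrb1, 18 of 100 had an unadjusted p under 0.05. Of the whole chromosome 64 of 449 did (14.3%), and of all genes 9.29%. The count of 11 was 6 without wild-type array 3 (1.34% against 0.268% of all genes) and 5 with the mean of the probe sets of a gene. The chromosome was examined with earlier results of these data in view, and the limit of 0.001 was chosen after the values were seen.

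**Figure D4:**
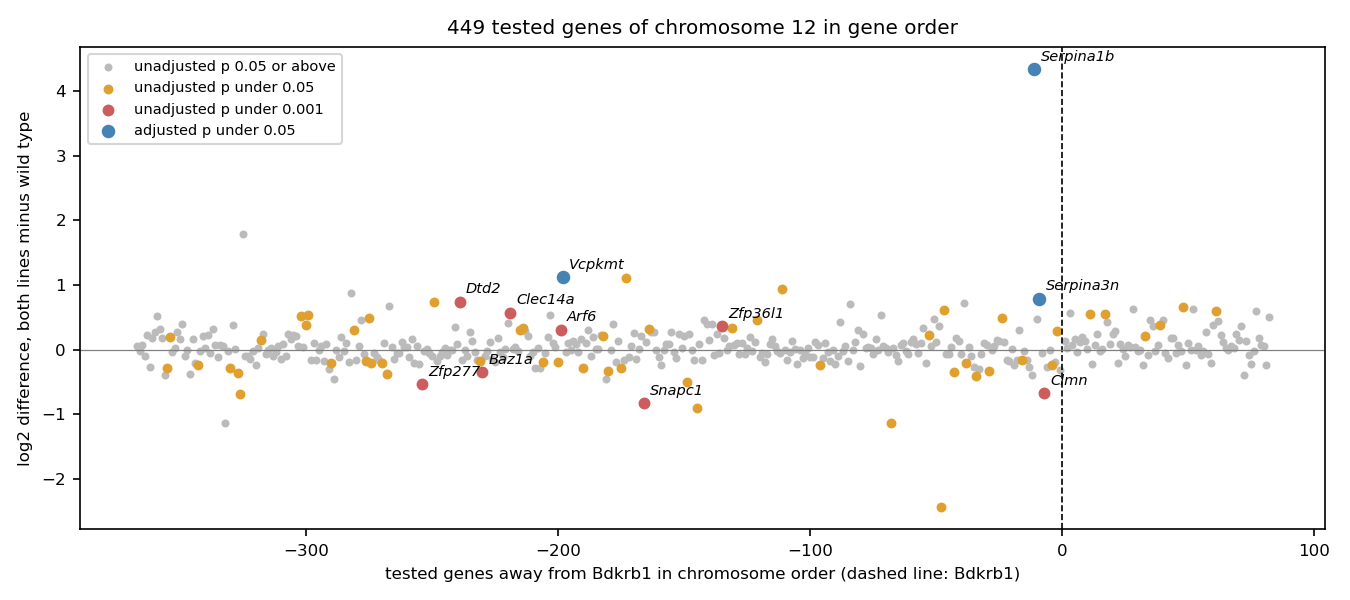
Log2 difference of both lines from wild type for the 449 tested genes of chromosome 12, ordered along the chromosome and counted from Bdkrb1 (dashed line). Of the genes with an unadjusted p under 0.001, Clmn, Serpina3n and Serpina1b lie 7, 9 and 11 tested genes before Bdkrb1, the others lie 135 to 254 before it, and none lies after it.

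A second close group was seen on chromosome 2 after the values were known. Serinc3 and Sdc4 are the ends of a stretch of 15 tested genes, of which these 2 passed and 6 had an unadjusted p under 0.05, where the whole chromosome had 110 of 1000. With 1 tested gene between them, Serinc3 was followed by Gm16316, a predicted gene that read 53.8, 7.2, 15.2 and 3.1 in wild type and 38.1 to 132.5 in the null arrays. Its log2 difference was 2.90 ± 0.61 (adjusted p = 0.168) and ran from 1.05 to 3.64 over the alternatives, and since 3 of the 4 wild-type values lay below the median signals of their arrays it is no exact size. The others were the adenosine deaminase gene Ada (0.66 ± 0.20, adjusted p = 0.338), the Hippo kinase gene Stk4 (0.25) and Pabpc1l (-0.60). The directions within the stretch were mixed, down for Serinc3 and up for Sdc4. The other 9 genes, among them Slpi (-0.21) and Matn4 (0.14), did not reach an unadjusted p of 0.05.

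Genes of lipid storage and fuel use had lower means in the null lines as groups, without a single member that passed. In the synthesis of fatty acids and triglycerides 20 of 23 genes were lower. The median log2 difference was -0.33 (knockout -0.28, fat rescue -0.44), and 6 genes had an unadjusted p under 0.05, where 3.93% of all genes did. The lipogenic regulator Thrsp read 10570 ± 2310 and 7822 ± 1210 (log2 -0.43 ± 0.14, adjusted p = 0.388), the phosphatidate phosphatase gene Lpin1 -0.36 ± 0.12 (0.402) and the lipogenic factor Srebf1 -0.37 ± 0.13 (0.411). Fads1, a fatty acid desaturase gene, had an unadjusted p under 0.05 in the other direction (0.27). The list mean was uneven, from -0.25 to 0.18 around the wild-type mean in wild type, -0.36 to -0.15 in knockout and -0.89 to 0.09 in fat rescue. Leaving out both wild-type array 1 and rescue array 1 gave a median of -0.21.

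Lipolysis and lipid droplets had 14 of 15 genes lower (median -0.23), 7 of them at an unadjusted p under 0.05. Mgll, which releases the last fatty acid of a triglyceride, read 10952, 10059, 10291 and 11076 in wild type. Signals in knockout were 8450, 9280.6, 9030 and 7239.8, and the rescue arrays 8273.5, 9322.7 and 8248.9. The groups did not overlap, and the log2 difference was -0.31 ± 0.08 (adjusted p = 0.250). Hormone-sensitive lipase, Lipe, read -0.24 ± 0.09 (0.443) and the lipid droplet gene Cidec -0.28 ± 0.10 (0.411). Fatty acid oxidation had 19 of 20 genes lower (median -0.20), 9 of them at an unadjusted p under 0.05, led by the beta-oxidation enzyme genes Hadh (-0.32 ± 0.09, adjusted p = 0.300), Hadhb (-0.29) and Acadl (-0.27). Of 11 fatty acid uptake genes 8 were lower (median -0.10), with the lipoprotein receptor gene Vldlr at -0.59 ± 0.13 (1540 ± 300 and 1019 ± 149, adjusted p = 0.178).

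All 23 tricarboxylic acid cycle and pyruvate genes were lower (median -0.20, and -0.12 without wild-type array 1), 7 at an unadjusted p under 0.05. The smallest p was that of Ogdh (-0.24 ± 0.07, adjusted p = 0.305), a subunit gene of the oxoglutarate dehydrogenase, and for the mitochondrial pyruvate carrier gene Mpc1 (-0.32 ± 0.11, 0.402). The respiratory chain had 33 of 35 lower (median -0.12, and -0.07 without wild-type array 1). Cox8b, a cytochrome oxidase subunit gene of brown fat and muscle, read 379.9, 278.9, 271.2 and 231.3 in wild type. The knockout arrays read 172.8, 195.7, 217.3 and 128.4, and the rescue arrays 125, 119.8 and 98.5. It was lower in each null array, and lower in each rescue than in each knockout array (log2 -0.97 ± 0.21, adjusted p = 0.168). Between the lines its unadjusted p was 0.00794. Glycolysis had 11 of 14 lower (median -0.14), with the phosphofructokinase gene Pfkl at -0.37 ± 0.10 (adjusted p = 0.289).

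All 17 adipocyte identity genes had lower means as well (median -0.17), by -0.09 to -0.55 apart from Cidea, a dim droplet gene (90.9 ± 26.2 and 48.6 ± 19.3, log2 -0.97 ± 0.34, adjusted p = 0.406). The master regulator Pparg read -0.17, Adipoq -0.12, Lep, the leptin gene, -0.14 and Fabp4, whose promoter drives the transgene, -0.10 ± 0.12 (adjusted p = 0.847). Of 13 adipokine genes and their receptors 12 were lower (median -0.23, and -0.14 without rescue array 3), with Rbp4 at 7866.4, 7813.4, 8505.7 and 6857.2 in wild type. Its knockout arrays read 6363, 6455, 5563.5 and 4827.7 and its rescue arrays 5741.8, 5893.2 and 4870.5, without overlap. Nrg4, an epidermal growth factor family hormone gene of fat, followed (-0.50 ± 0.14, adjusted p = 0.298). With quantile normalization the adipocyte median was -0.09 and 15 of 17 remained lower, and the respiratory chain median was -0.05 with 29 of 35 lower. With each array centred on its median the medians of these lists from synthesis to adipokines were -0.23 to -0.45. All lay below that of all genes, as before centring, which moves every gene by the same amount and so cannot change this. The median of fatty acid uptake was 0.01 with quantile normalization, and with single arrays left out it was -0.19 (wild-type array 2), -0.04 (knockout array 4) or -0.05 (wild-type array 4). The array medians and the beta-actin ratio, of which the first separated the groups and the second overlapped, moved with these lists, and their part in the result was not tested.

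Interferon response genes had higher means in 28 of 30 cases, with a median of 0.22 (0.21 in knockout and 0.27 in fat rescue), and 11 had an unadjusted p under 0.05 in that direction, where 5.37% of all genes did. Iigp1 was the only one that passed upward, and Trim14 the only one that passed downward. Igtp read 359.3, 303, 303.7 and 251 in wild type. Its signals were 499.1, 404.1, 374.6 and 480.4 for knockout, then 467.3, 409.9 and 477.1 for fat rescue. The groups did not overlap (log2 0.55 ± 0.11, adjusted p = 0.122). Ifi47, another GTPase gene of the family, read 205 ± 19.1 and 287.5 ± 46.5 (0.48 ± 0.13, adjusted p = 0.275). Its promoter window, not printed above, held neither an ISRE core nor a GAS but a GRE core 191 bases before the start. Irgm2 read 269 ± 6.47 and 333.5 ± 34.5 (0.30 ± 0.09, 0.338). The mean of the list lay above the wild-type mean in all 7 null arrays, from 0.11 to 0.41, and within -0.06 to 0.06 in wild type. With arrays centred on their median the list median was 0.09, with 23 of 30 higher. It lay 0.20 above that of all genes, a distance that centring cannot change. Of 12 antigen presentation genes 8 were higher (median 0.17, and 0.09 without wild-type array 1 or wild-type array 2), with the class II gene H2-Aa at 0.30 ± 0.10 (adjusted p = 0.406) and the class I light chain B2m at -0.20.

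Macrophage markers moved in the same direction. Of 25 measured, 23 had higher means (median 0.30) and 10 an unadjusted p under 0.05, but none passed. The defining markers read 436.4 to 630 in wild type and 488.9 to 1091 in the null arrays for Adgre1, 535.2 to 812.9 and 581.1 to 1892 for Cd68, and 3346 to 4199 and 3066 to 5229 for Csf1r, and so overlapped. The pore-forming gene Mpeg1 (0.83 ± 0.25, adjusted p = 0.338) and the pattern receptor gene Clec7a (0.75 ± 0.23, 0.342) had the smallest p. The summed signal of the list was 22060 to 31240 in wild type and 24390 to 48560 in the null arrays. Knockout array 1 was the highest, with a list mean 1.0 above wild type on the log2 scale, and without it the median was 0.20. It was 0.20 as well once wild-type array 1 was left out, and 0.47 once wild-type array 2 was. The interferon median was 0.22 without knockout array 1, as with it, and the part of macrophage markers in the interferon result was not tested.

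Lymphocyte markers had higher means in 11 of 15 cases (median 0.38, and 0.12 without wild-type array 1), with the chemokine gene Ccl5 at 0.78 ± 0.18 (99.9 ± 12.2 and 174 ± 37.5, adjusted p = 0.194). The summed signal of the list ran from 6350 to 10410 in wild type and from 3174 to 9827 in the null arrays, most of it from the antibody heavy chain gene Ighm (-0.40 ± 0.31, adjusted p = 0.720). The defining genes were dim, Cd3e at 30.9 to 55.8 in wild type and 9.5 to 68.8 in the null arrays. Mesothelial markers, of the lining that covers this depot, were higher in 14 of 15 (median 0.34, and 0.12 without wild-type array 1), with Lrrn4 at 0.37 ± 0.13 (adjusted p = 0.401). Their summed signal was 3756 to 6491 in wild type and 5436 to 7550 in the null arrays. The defining genes Msln (0.16 ± 0.15), Upk3b (0.21 ± 0.13) and Wt1 (0.38 ± 0.20) did not reach an unadjusted p of 0.05, and their null arrays overlapped wild type. Endothelial (8 of 19 higher, median -0.02) and fibroblast markers (13 of 21, median 0.06) lay near the median of all genes. The endothelial median was -0.10 in knockout and 0.10 in fat rescue. Smooth muscle and pericyte markers had higher means in 5 of 13 cases (median -0.05). Neutrophil and mast cell markers did in 9 of 10 (median 0.11), and none passed. The mean over that list, on the log2 scale, ran from -0.35 to 0.29 in the wild-type arrays and from -0.38 to 0.93 in the null arrays, with rescue array 1 the highest. Its median was -0.01 with centred arrays, 0.04 without knockout array 1, 0.05 without wild-type array 1, 0.07 without rescue array 1 and up to 0.22 with another array left out (rescue array 2). The neutrophil gene S100a8 read 167.4 to 320.8 in wild type and 135.4 to 1404.3 in the null arrays, the highest again in rescue array 1. Few markers of the remaining cell types were bright enough to be measured, 5 each of skeletal muscle and nerve, 3 each of hepatocytes and epididymis and 2 of red cells. Hepatocyte Alb read 108.4 to 179 in wild type and 81.4 to 127.2 in the null arrays. Defb41 of the epididymis, too dim to be kept, read 1.7 to 12.1 in wild type and 1.5 to 17.9 in the null arrays. The summed signal of the 3 measured epididymis and testis genes varied widely, from 74.2 to 1096 in wild type and 59.4 to 1679 in the null arrays. Their list mean was lowest in wild-type array 1 (-1.45) and rescue array 1 (-1.56).

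Immediate early genes, which answer within minutes to growth factors and to tissue handling, had higher means in 18 of 23 cases, with a median of 0.19. It was 0.12 once wild-type array 1 was left out. An unadjusted p under 0.05 was reached by 8 of the 18. Junb read 94.4, 64.2, 90.6 and 85.3 in wild type. In knockout the signals were 149.1, 153.3, 120.9 and 126.4, and the rescue arrays 142.4, 124.8 and 125.2, so that the groups did not overlap. Nor did they for the zinc finger factor Egr1 (420 ± 96.5 and 713.5 ± 161, log2 0.77 ± 0.18, adjusted p = 0.203) or Ier2 (226 ± 24.8 and 302 ± 30.5, 0.42 ± 0.10, 0.210). None passed. Feedback inhibitors of MAP kinase signalling, many of them induced by the same signals, were higher in 14 of 16 (median 0.19, with 0.14 in knockout and 0.26 in fat rescue). The kinase gene Plk2 read 0.58 ± 0.13 (adjusted p = 0.178) and the phosphatase genes Dusp4 0.50 and Dusp6 0.27. Dusp4 differed by 0.27 in knockout, whose arrays (234.7 to 277.6) overlapped wild type (174.2 to 264.4). In fat rescue it differed by 0.80 (333.7 to 419.3). The list means of all 7 null arrays were above the wild-type mean in both lists. Heat shock genes, by contrast, had 6 of 12 higher (median 0.00), and none had an unadjusted p under 0.05. How long the tissue waited before freezing is not given.

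**Figure D5:**
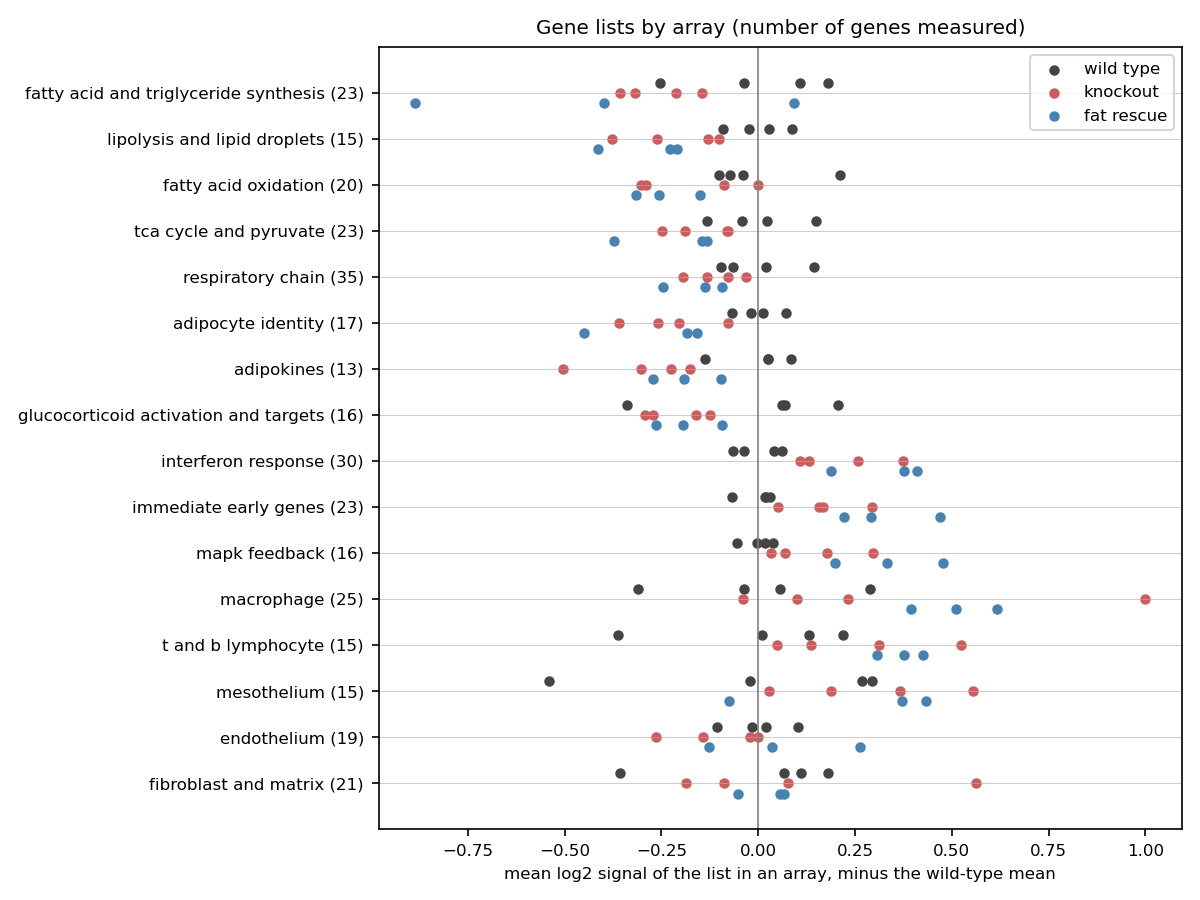
Mean log2 signal of 16 gene lists in each array, relative to the mean of the 4 wild-type arrays, with the number of measured genes in brackets. Points of both null lines lie left of the wild-type mean for most metabolic lists and right of it for interferon and immediate early genes, and knockout array 1 stands out at 1.0 for macrophage markers.

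In the other lists no member passed. Insulin signalling genes were higher in 10 of 19 cases (median 0.03), with Akt2 at -0.24 ± 0.08 (adjusted p = 0.356) and Pik3r1 at 0.32 ± 0.13 (adjusted p = 0.480). Cholesterol synthesis had 5 of 15 higher (median -0.05), the circadian clock 9 of 17 (0.02), and antioxidant genes 8 of 20 (-0.05), with the extracellular superoxide dismutase gene Sod3 at -0.39 ± 0.12 (adjusted p = 0.344). Genes of endoplasmic reticulum stress were higher in 13 of 19 (0.05) and cell cycle genes in 17 of 21 (0.12). The cell cycle median was 0.07 without knockout array 1. It was -0.01 with centred arrays, and its distance of 0.10 above that of all genes cannot change with centring. With quantile normalization 15 of 19 endoplasmic reticulum stress genes were higher (median 0.09). Brown and beige fat genes were divided, 5 higher and 5 lower of 10 (median -0.02, with 0.05 in knockout and -0.145 in fat rescue). Their list mean ran from -0.379 to 0.224 in wild type, -0.245 to 0.283 in knockout and -0.444 to -0.227 in fat rescue. The small medians of insulin signalling, the clock and brown fat genes turned sign when single arrays were left out.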

How the data were processed

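Total RNA of 11 fat samples was hybridized to 1 one-colour Affymetrix array each. Values are the deposited linear intensity of each probe set, which the authors made with GCOS 1.3 and MAS5 per the submitters' processing notes, and were used as scaled. A value of 0 (1 in all) was set to 0.1, and log2 was taken. Of 45101 probe sets, 34945 had 1 gene symbol. The upper 60% by mean log2 signal were kept (27022), and the brightest probe set of a gene was used (12709 genes). The table has no detection calls.

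Both lines were fitted against wild type with limma 3.58.1 (eBayes with trend, R 4.3.3, statmod 1.5.0), and a fit of the 3 genotypes gave each line and their difference. Permutation tests of array measures were exact. The steps were tested on simulated data. Genes named are the receptor genes, those that passed, the next by p up to 8 in each direction, 4 in each direction for the lines, up to 3 by p in each list, and defining markers. Further members were named as background after their values were seen. Of 679 listed genes 556 were measured. The comparison, members and lists were chosen with earlier results of these data known. Gene order came from RefSeq genes (12685 of 12709 genes), and promoter windows from RefSeq on GRCm38.p6. The deposited table names no build. Alternatives covered scaling, pseudocount 50, filters, probe sets, variance models, equally weighted lines, a replicate block and leaving out arrays. The labels give no batch, and replicate numbers are not said to pair animals.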

Additional observations from a re-analysis of the deposited data

Results flagged for a closer look

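Within a group of arrays, 4 values stood far from the rest among 96 sets of gene and group examined for 32 genes. The groups were wild type, knockout and both lines together, so the knockout arrays entered more than once. The genes were chosen by p in these same data, so the count cannot be set against a rate due to chance. For each of the 4 values the gap to the nearest array is given as a share of the range of its group. Zfp277, a gene of chromosome 12, read 399.4 in knockout array 3 and 300.5 to 311.6 in the other knockout arrays (gap 0.873). Nkain4 read 188.9 in wild-type array 1 and 256.2 to 261.6 in the others (0.936), and Smad6 430.8 in wild-type array 4 and 464.6 to 469.2 in the others (0.885). Mcm2 read 136.9 in knockout array 2 and 200.2 to 214.2 in the others (0.849).

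Probe sets without a single gene symbol entered no comparison above. With all 27022 kept probe sets fitted, 15 passed in limma at an adjusted p under 0.05, and 3 of these were among the 4085 without 1 symbol. The first, with no symbol, read 70.6 to 81.9 in wild type and 149.9 to 191.9 in the null arrays (log2 1.09 ± 0.11, adjusted p = 0.000644). The second, with several symbols, read 340.9 to 371.7 and 130 to 205.2 (-1.19 ± 0.13, adjusted p = 0.00171). The third, also with several, read 75.2 to 87.6 and 110.3 to 187.5 (0.84 ± 0.14, adjusted p = 0.0474). All 3 separated the 7 null arrays from the 4 wild-type arrays.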

How the results depend on the processing

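The count of 8 genes became 14 with centred arrays, 2 with eBayes without trend (Sdc4 and Serpina1b), 15 with array weights, 14 without wild-type array 1 and rescue array 1, and 4 to 21 with single arrays left out. The other settings gave 7 to 12. Knockout against wild type (5 genes) gave 10 with centred arrays, 2 without trend, 14 without wild-type array 1 and rescue array 1, 2 with only the groups compared, and 2 to 14 with single arrays left out. Fat rescue against wild type (2 genes) gave 5 with centred arrays, 6 with the upper 40% of probe sets, 1 with the mean of probe sets, without trend, with robust eBayes or with only the groups compared, 7 with array weights, 6 without wild-type array 1 and rescue array 1, and 1 to 8 with single arrays left out. The 11 chromosome 12 genes at an unadjusted p under 0.001 became 5 with the mean of probe sets, 7 without those 2 arrays, and 6 to 11 with single arrays left out. The Bdkrb1 difference of 1.56 ranged from 1.14 to 2.18 with single arrays left out and was 0.44 with pseudocount 50. With the mean of probe sets the signs of Arf6 (-0.086), Syt11 (0.19) and Pacc1 (0.084) turned. Causes were not tested. With the replicate block, both lines against wild type gave 7 genes (5 shared with the 8), knockout 8, fat rescue 2 and the difference between the lines 0, and chromosome 12 gave 7. Of 10 same-numbered pairs 4 correlated above 0.1 (-0.14 to 0.345). Among these were wild-type array 1 with rescue array 1 (0.345) and with knockout array 1 (0.141), and knockout array 1 with rescue array 1 (0.188). Differently numbered pairs ran from -0.312 (wild-type array 4 with rescue array 1) to 0.28 (wild-type array 4 with rescue array 2), so some of those also lay above 0.1. Whether same-numbered arrays were handled together cannot be told from so few pairs. Precision is limited by the number of arrays and, for Serpina1b, Vcpkmt, Gm16316 and Bdkrb1, by low signal.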
